A study of Vitis rotundifolia with 18 samples.

Results

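Transcript levels of ACC oxidases and of auxin-conjugating GH3 enzymes were followed through ripening in berries of the muscadine grape, Vitis rotundifolia. The genes were taken from a fixed list of 5 identifiers, 3 listed as ACC oxidases and 2 listed as the IAA-amido synthetases GH3-1 and GH3-2. Of these, 4 were measured among the 27228 identifiers of the deposited tables: the ACC oxidases VIT_12s0059g01380 and VIT_11s0016g02380, GH3-1 (VIT_03s0091g00310) and GH3-2 (VIT_07s0005g00090). The third ACC oxidase, VIT_00s2086g00010, was not analysed here. The names come with that list, since the tables hold identifiers only. GH3-1 and GH3-2 were matched to their 2 identifiers by the order in which the list gives them, so which identifier carries which of these names was not checked. All 4 genes passed the filter on low counts, and 17657 genes were tested. The libraries came from bulk berry RNA of 2 cultivars, Noble and Carlos, grown at a Florida research station, and each was sampled at bunch closure (stage E-L 32), veraison, the onset of ripening (E-L 35), and maturity (E-L 38). The E-L scale numbers the growth stages of grapevine. The 6 groups held 3 libraries each, untreated as far as the labels say. Nothing in the labels ties replicates to separate vines or harvests, so p-values measure the spread between libraries, which may be technical.

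ACC oxidase carries out the final step of ethylene synthesis, the conversion of 1-aminocyclopropane-1-carboxylic acid (ACC) to ethylene. Grape is classed as a non-climacteric fruit, one that ripens without the large ethylene burst of tomato or banana. GH3 enzymes of the IAA-amido synthetase type join the auxin indole-3-acetic acid (IAA) to amino acids, which takes free auxin out of circulation. Auxin is known to delay ripening in grape, and IAA conjugated to aspartate is known to accumulate in grape berries around veraison.

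Totals ran from 18919160 to 30843026 expected counts per library. Levels below are given in CPM, counts divided by the scaled library total and set to a common size, and levels of different genes are compared only in TPM, which is scaled by gene length. In bulk berry tissue, fewer cells that express a gene and less RNA per cell cannot be told apart. There were 3 libraries treated as standing apart from their groups: Noble E-L 32 replicate 1, Noble E-L 35 replicate 2 and Carlos E-L 35 replicate 3. The last had a Pearson correlation of log2 CPM across genes of 0.922 and 0.920 with its replicates, which correlated at 0.991 with each other. Noble E-L 35 replicate 2 had 0.973 and 0.968, and Noble E-L 32 replicate 1 had 0.979 and 0.976. Carlos E-L 38 replicate 3 had similar values, 0.976 and 0.977, where its replicates correlated at 0.988. It was not among the 3 and stays in the fits without them. Results are given with and without the 3 libraries where the call or the size depends on them. The cultivar names at E-L 38 also went against the earlier stages. Of 732 genes called between the cultivars in the same direction at E-L 32 and E-L 35 and called again at E-L 38, 721 (98.5%) had the opposite direction at E-L 38. VIT_04s0008g04060, singled out after its values were seen, stood at 175 to 257 CPM in Noble E-L 32 and at 886 to 1359 CPM in Noble E-L 35, against 0 to 0.550 CPM in all 6 Carlos libraries of these stages. At E-L 38 it stood at 0 to 2.79 CPM in libraries labelled Noble, against 1118 to 1623 CPM in those labelled Carlos. The E-L 38 libraries are therefore called by their labels, and steps averaged over both labels, which do not depend on the names, are given first.

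Averaged over both labels, the ACC oxidase VIT_12s0059g01380 and GH3-2 fell from bunch closure to maturity, the ACC oxidase VIT_11s0016g02380 rose, and GH3-1 did not pass the test. At E-L 38 against E-L 32, 3 of 4 genes were called (edgeR, adjusted p under 0.05), 1 higher and 2 lower. Of all tested genes 70.5% were called there, 34.9% higher and 35.6% lower. At E-L 35 against E-L 32, 3 of 4 were called, again 1 higher and 2 lower, where 62.6% of all genes were called (30.6% higher and 32.1% lower). At E-L 38 against E-L 35, 2 of 4 were called, 1 higher and 1 lower, where 38.1% of all genes were called (16.9% higher and 21.2% lower). With shares of this size, the counts by themselves say nothing particular about these genes. The median log2 fold change of the 4 genes over the whole span was -2.20, against -0.01 for all genes tested. Without the 3 libraries that stood apart, 4 of 4 genes were called at E-L 38 against E-L 32 and at E-L 35 against E-L 32, with GH3-1 added among the lower ones, and 2 of 4 were called at E-L 38 against E-L 35. In that setting 74.1%, 67.9% and 35.9% of all genes were called in these steps, in the same order.

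**Figure D1:**
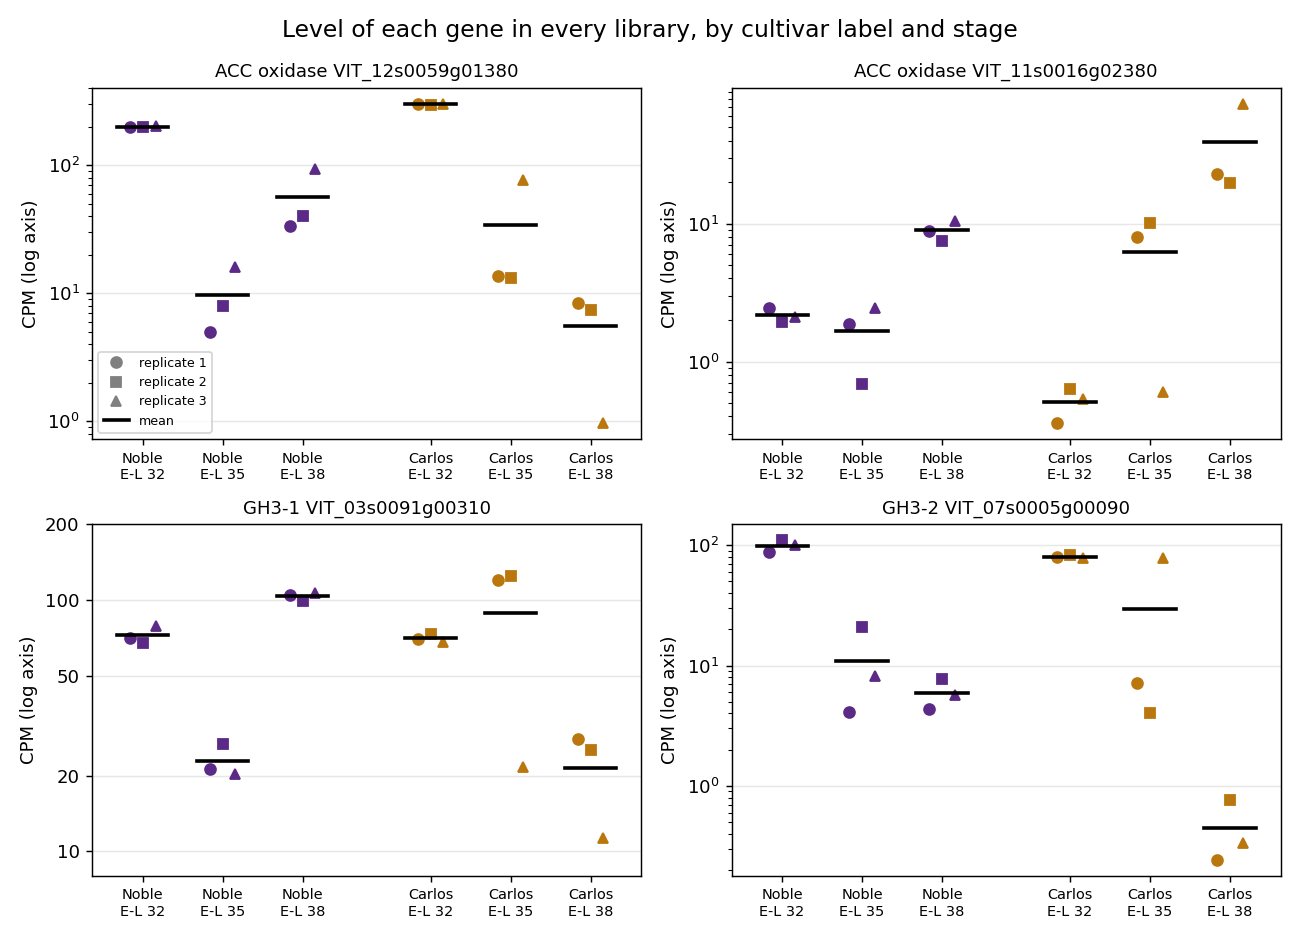
Levels of the 4 genes in CPM on a log axis in each of the 18 libraries, with cultivar label and stage along the horizontal axis, symbols for replicates and a bar for the group mean. VIT_12s0059g01380 and GH3-2 were highest at E-L 32, VIT_11s0016g02380 was highest at E-L 38 under the Carlos label, and Carlos E-L 35 replicate 3 lay far from its replicates in all 4 panels.

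The ACC oxidase transcript VIT_12s0059g01380 was abundant before ripening and far lower at veraison. In Noble it stood at 201, 200.2 and 202 CPM in the 3 libraries of E-L 32 and at 5.01, 8.02 and 16.2 CPM in those of E-L 35. Libraries labelled Noble at E-L 38 held 33.7, 40.5 and 94.6 CPM. The E-L 32 libraries lay within 1 CPM of their mean and above every later Noble library. In Carlos the gene stood at 303, 298 and 305 CPM at E-L 32 and at 13.6, 13.2 and 76.5 CPM at E-L 35. Libraries labelled Carlos at E-L 38 held 8.34, 7.43 and 0.966 CPM. The Carlos E-L 32 libraries were the highest of all, and the high value at E-L 35 belongs to replicate 3. Scaled by length, the gene stood above 96.3% ± 0.183 of tested genes in Noble E-L 32 (SD, n = 3) and above 43.6% ± 10.8 in Noble E-L 35. Libraries labelled Noble at E-L 38 stood at 78.5% ± 9.14. In Carlos it stood above 97.5% ± 0.085 at E-L 32, 63.9% ± 21.1 at E-L 35 and 34.6% ± 12.7 under the Carlos label at E-L 38.

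The fall of VIT_12s0059g01380 at veraison was called in both cultivars. In Noble the mean was 9.74 ± 5.79 CPM at E-L 35, against 201 ± 0.764 CPM at E-L 32 (SD, n = 3 each). The log2 fold change was -4.37 ± 0.79 (SE), with an edgeR adjusted p of 0.000376. In Carlos it was 34.5 ± 36.4 CPM at E-L 35, against 302 ± 3.78 CPM at E-L 32. The log2 fold change was -3.13 ± 0.74 (adjusted p = 0.00247). Without Carlos E-L 35 replicate 3 the log2 fold change in Carlos was -4.48. Averaged over both cultivars the gene was 13.5-fold below E-L 32 at E-L 35 (log2 fold change -3.75 ± 0.54, adjusted p = 2.6e-05), or -4.42 on the log2 scale without that library. Over the whole span it was 13.9-fold below E-L 32 at E-L 38 (log2 fold change -3.80 ± 0.55, adjusted p = 1.7e-05).

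From veraison to maturity VIT_12s0059g01380 was called as higher under the Noble label and as lower under the Carlos label. Libraries labelled Noble averaged 56.3 ± 33.4 CPM at E-L 38, against 9.74 ± 5.79 CPM at E-L 35 (log2 fold change 2.53 ± 0.73, edgeR adjusted p = 0.0163). Libraries labelled Carlos averaged 5.58 ± 4.02 CPM at E-L 38, against 34.5 ± 36.4 CPM at E-L 35 (log2 fold change -2.62 ± 0.75, adjusted p = 0.0122). Neither call held under every alternative. Under the Noble label the step was 2.23 without Noble E-L 35 replicate 1 (adjusted p = 0.0636), 2.41 without its replicate 2 (0.0563) and 1.94 without Noble E-L 38 replicate 3 (0.0734). Under the Carlos label it was -1.28 without Carlos E-L 35 replicate 3 (0.107) and -2.67 when only these 6 libraries were fitted (0.116). Set against E-L 35 libraries of the other cultivar name, the steps were 0.71 for libraries labelled Noble (adjusted p = 0.479) and -0.80 for those labelled Carlos (0.459). Averaged over both labels the step was -0.05 ± 0.50 on the log2 scale, with a 95% interval of -1.11 to 1.02 (adjusted p = 0.961), and it turned to 0.63 without Carlos E-L 35 replicate 3.

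VIT_11s0016g02380, the other ACC oxidase, was scarce at bunch closure and higher at maturity under both labels. In Noble it stood at 2.44, 1.95 and 2.09 CPM in the libraries of E-L 32, and at 1.88, 0.687 and 2.44 CPM in those of E-L 35. Libraries labelled Noble at E-L 38 held 8.86, 7.53 and 10.4 CPM. Noble libraries of E-L 32 and E-L 35 overlapped, and those of E-L 38 lay above both. In Carlos it stood at 0.358, 0.630 and 0.538 CPM at E-L 32 (12 to 16 expected counts per library) and at 8.05, 10.02 and 0.606 CPM at E-L 35. Libraries labelled Carlos at E-L 38 held 23.0, 19.8 and 74.3 CPM. Here replicate 3 stood low at E-L 35, inside the E-L 32 range, and high at E-L 38. Scaled by length, the gene stood above 21.7%, 22.9% and 49.97% of tested genes on average in Noble at E-L 32, 35 and 38, and above 10.5%, 37.2% and 74.7% in Carlos at those stages as labelled.

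The step to veraison differed between the cultivars. At E-L 35 VIT_11s0016g02380 rose in Carlos, at 6.23 ± 4.97 CPM at E-L 35 against 0.509 ± 0.139 CPM at E-L 32 (SD, n = 3 each). The log2 fold change was 3.63 ± 0.81 (SE, edgeR adjusted p = 0.00169). With limma-voom it was not called (0.113; its alternatives spanned 2.3e-06 to 0.113). In Noble the gene averaged 1.67 ± 0.893 CPM at E-L 35, against 2.16 ± 0.252 CPM at E-L 32, for a log2 fold change of -0.39 ± 0.74 with a 95% interval of -1.97 to 1.18 (adjusted p = 0.684). The Noble step minus the Carlos step was -4.02 ± 1.10 on the log2 scale (adjusted p = 0.0208). That difference was not called with limma-voom (0.229) or without Carlos E-L 32 replicate 1 (0.0575). Averaged over both cultivars the step was 1.62 ± 0.55 (adjusted p = 0.0182), and it was not called with limma-voom (0.315, in a range of 0.000528 to 0.315) or without Noble E-L 35 replicate 3 (0.0506). After veraison the gene was higher at E-L 38 under both labels. The log2 fold change of E-L 38 over E-L 35 was 2.44 ± 0.73 under the Noble label (adjusted p = 0.0185) and 2.64 ± 0.69 under the Carlos label (adjusted p = 0.00727). The Noble-label call ended with limma-voom, at 2.67 (0.0711), and without Noble E-L 35 replicate 2, at 2.05 (0.0717). The Carlos-label call ended without Carlos E-L 38 replicate 3, at 1.76 (0.0537), and in a fit to its 6 libraries, at 2.61 (0.109). Set against E-L 35 of the other cultivar name, the steps were 0.52 for libraries labelled Noble (0.601) and 4.57 for those labelled Carlos (0.00118). Averaged over both labels this step was 5.82-fold upward (log2 fold change 2.54 ± 0.50, adjusted p = 0.00145) and was called under each of 20 alternatives. Over the whole span the gene was 17.9-fold higher at E-L 38 than at E-L 32 (log2 fold change 4.16 ± 0.55, adjusted p = 8.1e-06).

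Between the 2 ACC oxidases, the share held by VIT_11s0016g02380 was smallest at bunch closure and largest at maturity under the Carlos label. Shares were not tested. VIT_11s0016g02380 held 1.41% ± 0.156 of their summed TPM in Noble E-L 32, 20.2% ± 11.97 in Noble E-L 35 and 19.7% ± 6.63 in libraries labelled Noble at E-L 38 (SD, n = 3). In Carlos it held 0.225% ± 0.0638 at E-L 32 and 31.9% ± 26.9 at E-L 35, from 44.2%, 50.4% and 1.05% in the 3 libraries. In libraries labelled Carlos at E-L 38 it held 78.8%, 78.0% and 99.03%, so that it was the more abundant of the pair in each of them. The summed TPM of the pair was 264 ± 8.27 in Noble E-L 32, 12.1 ± 6.19 in Noble E-L 35 and 61.7 ± 33.0 in libraries labelled Noble at E-L 38. In Carlos it was 357 ± 5.39 at E-L 32, 38.8 ± 26.4 at E-L 35 and 50.7 ± 29.9 under the Carlos label at E-L 38. These sums leave out VIT_00s2086g00010 and any ACC oxidase not on the list. Each of the 12 later libraries had a lower sum than every E-L 32 library.

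GH3-1 (VIT_03s0091g00310) stood at 67.4 to 78.9 CPM in both cultivars at bunch closure, and fell at veraison in Noble, whereas the Carlos step did not pass the test. In Noble it stood at 70.9, 67.4 and 78.9 CPM in the libraries of E-L 32 and at 21.3, 26.8 and 20.3 CPM in those of E-L 35. Libraries labelled Noble at E-L 38 held 105, 98.8 and 106 CPM. The 3 Noble groups did not overlap, with E-L 35 the lowest. In Carlos it stood at 70.0, 73.3 and 67.8 CPM at E-L 32, and at 119.7, 125 and 21.6 CPM at E-L 35. Libraries labelled Carlos at E-L 38 held 28.0, 25.3 and 11.3 CPM. Carlos E-L 35 replicates 1 and 2 were the highest libraries of the series for this gene, and replicate 3 lay in the range of Noble E-L 35. Scaled by length, GH3-1 stood on average above 77.6%, 50.5% and 81.6% of tested genes in Noble at E-L 32, 35 and 38, and above 75.5%, 72.5% and 48.96% in Carlos at those stages as labelled.

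GH3-1 fell in Noble at veraison, at 22.8 ± 3.47 CPM at E-L 35 against 72.4 ± 5.90 CPM at E-L 32 (SD, n = 3 each). The log2 fold change was -1.67 ± 0.45 (SE, edgeR adjusted p = 0.00658). In Carlos it averaged 88.6 ± 58.1 CPM at E-L 35, against 70.4 ± 2.81 CPM at E-L 32, and the log2 fold change of 0.33 ± 0.44 was not called (adjusted p = 0.540, 95% interval -0.60 to 1.26). Without Carlos E-L 35 replicate 3 the gene was called as higher in Carlos, at a log2 fold change of 0.81 (adjusted p = 0.00888). The Noble step minus the Carlos step was -1.999 ± 0.625 on the log2 scale (adjusted p = 0.0388). That call held without Noble E-L 35 replicate 2 or Carlos E-L 35 replicate 3 and ended without any of the other 10 libraries of these stages, with adjusted p from 0.0621 to 0.0898. Without the 3 libraries that stood apart it was -2.61 (adjusted p = 0.000118), and it was not called with limma-voom (0.113). Averaged over both cultivars the step was -0.67 ± 0.31 (adjusted p = 0.0745), and it was called with DESeq2 (0.0410), limma-voom (0.0431) and without Carlos E-L 35 replicate 2 (0.0408) or replicate 3 (0.0320).

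From veraison to maturity GH3-1 rose under the Noble label and fell under the Carlos label. Libraries labelled Noble averaged 103 ± 4.04 CPM at E-L 38, against 22.8 ± 3.47 CPM at E-L 35 (log2 fold change 2.18 ± 0.46, edgeR adjusted p = 0.00236). Libraries labelled Carlos averaged 21.6 ± 8.95 CPM at E-L 38, against 88.6 ± 58.1 CPM at E-L 35 (log2 fold change -2.04 ± 0.46, adjusted p = 0.00281). The difference between these steps was 4.22 ± 0.65 on the log2 scale (adjusted p = 0.000171). The Carlos-label call ended in an edgeR fit to its 6 libraries, at -2.07 (adjusted p = 0.0829). Its groups overlapped, since Carlos E-L 35 replicate 3 lay inside the range of libraries labelled Carlos at E-L 38. Set against E-L 35 libraries of the other cultivar name, the steps were 0.22 for libraries labelled Noble (adjusted p = 0.743) and -0.08 for those labelled Carlos (adjusted p = 0.916). Averaged over both labels the step was 0.07 ± 0.31, with a 95% interval of -0.59 to 0.73 (adjusted p = 0.884), and it turned to -0.17 without Carlos E-L 35 replicate 3. Whether these steps were called therefore depends on the cultivar names at E-L 38. Over the whole span the averaged change was -0.60 ± 0.31 (adjusted p = 0.0992), and without the 3 libraries that stood apart it was called at the same -0.60 (adjusted p = 0.00382).

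GH3-2 (VIT_07s0005g00090) was high at bunch closure in both cultivars and low at maturity under both labels. In Noble it stood at 88.2, 110.2 and 99.8 CPM in the libraries of E-L 32 and at 4.11, 20.8 and 8.16 CPM in those of E-L 35. Libraries labelled Noble at E-L 38 held 4.33, 7.70 and 5.66 CPM, all inside the range of Noble E-L 35. In Carlos it stood at 79.6, 83.2 and 78.1 CPM at E-L 32 and at 7.11, 4.02 and 78.3 CPM at E-L 35. Libraries labelled Carlos at E-L 38 held 0.243, 0.757 and 0.336 CPM, the lowest of all and 6 to 17 expected counts per library. Carlos E-L 35 replicate 3 stood at the E-L 32 level. Scaled by length, GH3-2 stood on average above 86.5%, 38.2% and 32.6% of tested genes in Noble at E-L 32, 35 and 38, and above 82.2%, 48.1% and 11.9% in Carlos at those stages as labelled.

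At veraison GH3-2 fell in Noble, at 11.01 ± 8.68 CPM at E-L 35 against 99.4 ± 10.996 CPM at E-L 32 (SD, n = 3 each). The log2 fold change was -3.16 ± 0.84 (SE, edgeR adjusted p = 0.00581). Without Noble E-L 35 replicate 2 it was -4.01. In Carlos the averages were 29.8 ± 42.0 CPM at E-L 35, against 80.3 ± 2.64 CPM at E-L 32, and the log2 fold change of -1.43 ± 0.78 was not called (adjusted p = 0.137). Without Carlos E-L 35 replicate 3 it was called at -3.83 (adjusted p = 1.6e-05). Averaged over both cultivars GH3-2 was 4.92-fold below E-L 32 at E-L 35 (log2 fold change -2.30 ± 0.57, adjusted p = 0.00269), or -3.49 without that library. The later step was -6.07 ± 1.09 under the Carlos label, at 0.445 ± 0.274 CPM at E-L 38 against the mean of 29.8 CPM at E-L 35 (adjusted p = 0.000611). It was -3.67 without Carlos E-L 35 replicate 3 and -6.68 without Carlos E-L 38 replicate 2, and it was not called with limma-voom (0.0652). Under the Noble label the later step was -0.91 ± 0.81 (adjusted p = 0.418), or -0.06 without Noble E-L 35 replicate 2. Set against E-L 35 of the other cultivar name, GH3-2 had -2.33 for libraries labelled Noble (0.0575) and -4.64 for those labelled Carlos (0.0076). Averaged over both labels it was -3.49 ± 0.68 (adjusted p = 0.00135), -2.29 without Carlos E-L 35 replicate 3 and not called with limma-voom (0.0595, in a range of 2.4e-07 to 0.0595). Over the whole span GH3-2 was 55.1-fold below E-L 32 at E-L 38 (log2 fold change -5.78 ± 0.71, adjusted p = 3.8e-06), the largest change among the 4 genes, and 4.75% of all tested genes changed by more.

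**Figure D2:**
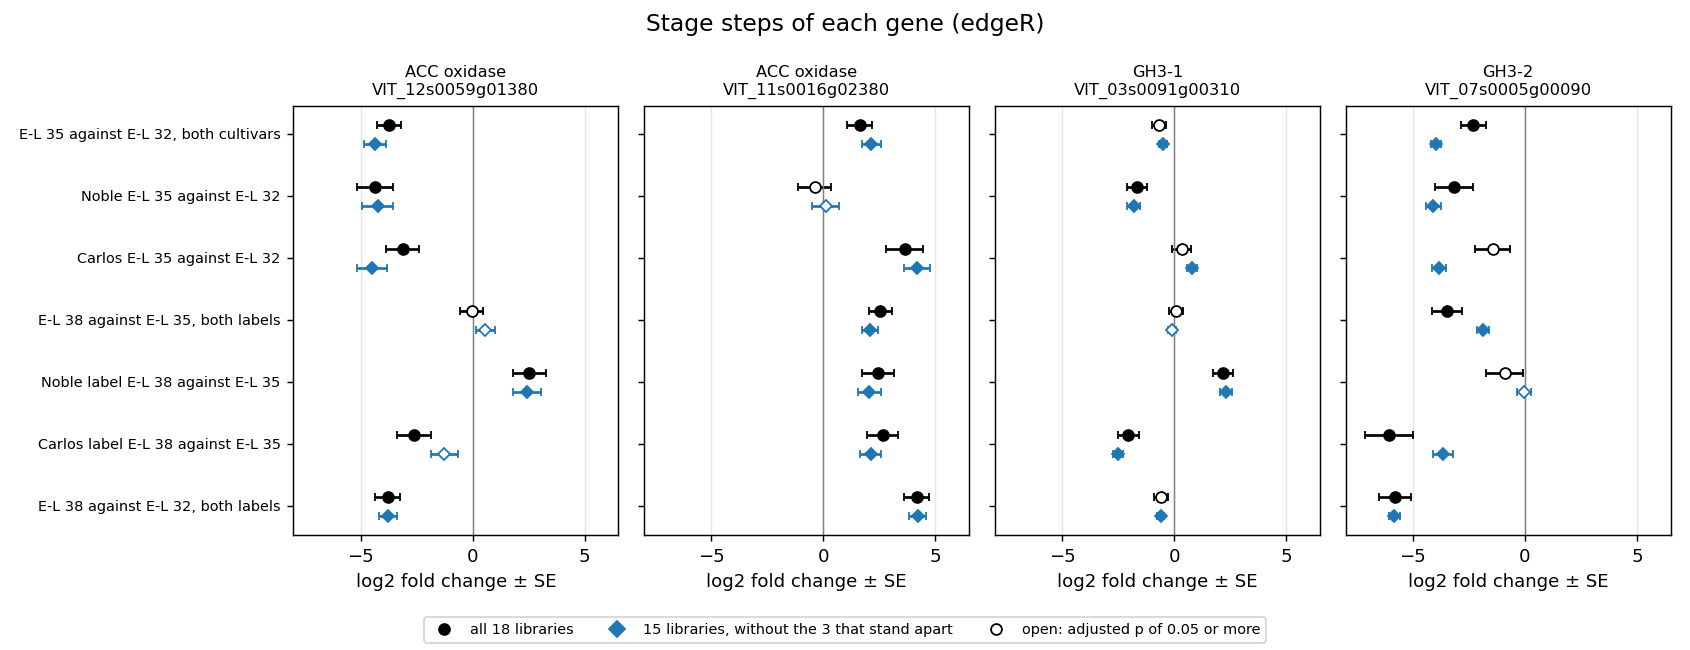
Log2 fold changes of the 4 genes for the stage steps, with bars for the SE, from edgeR with all 18 libraries (circles) and without the 3 that stood apart (diamonds), open where the adjusted p was 0.05 or more. VIT_12s0059g01380 lay at -3.80 and GH3-2 at -5.78 over the whole span, VIT_11s0016g02380 lay at 4.16, and steps to E-L 38 under the Noble and Carlos labels had opposite signs for VIT_12s0059g01380 and GH3-1.

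Of the 2 GH3 genes, GH3-1 held the smaller share at bunch closure and nearly the whole sum at maturity. It held 37.7% ± 3.57 of their summed TPM in Noble E-L 32, 66.7% ± 14.7 in Noble E-L 35 and 93.5% ± 1.96 in libraries labelled Noble at E-L 38 (SD, n = 3). In Carlos it held 42.0% ± 0.203 at E-L 32 and 97.3% ± 1.44 under the Carlos label at E-L 38. At Carlos E-L 35 the share was 93.3%, 96.3% and 18.5% in the 3 libraries. The summed TPM of the pair was 141 ± 13.4 in Noble E-L 32, 20.8 ± 8.53 in Noble E-L 35 and 55.4 ± 2.51 in libraries labelled Noble at E-L 38. In Carlos it was 111 ± 5.69 at E-L 32, 64.1 ± 4.87 at E-L 35 and 11.2 ± 4.87 under the Carlos label at E-L 38. At E-L 38 the 6 libraries held shares of 91.4% to 98.98%, and the sums of the labels did not overlap.

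**Figure D3:**
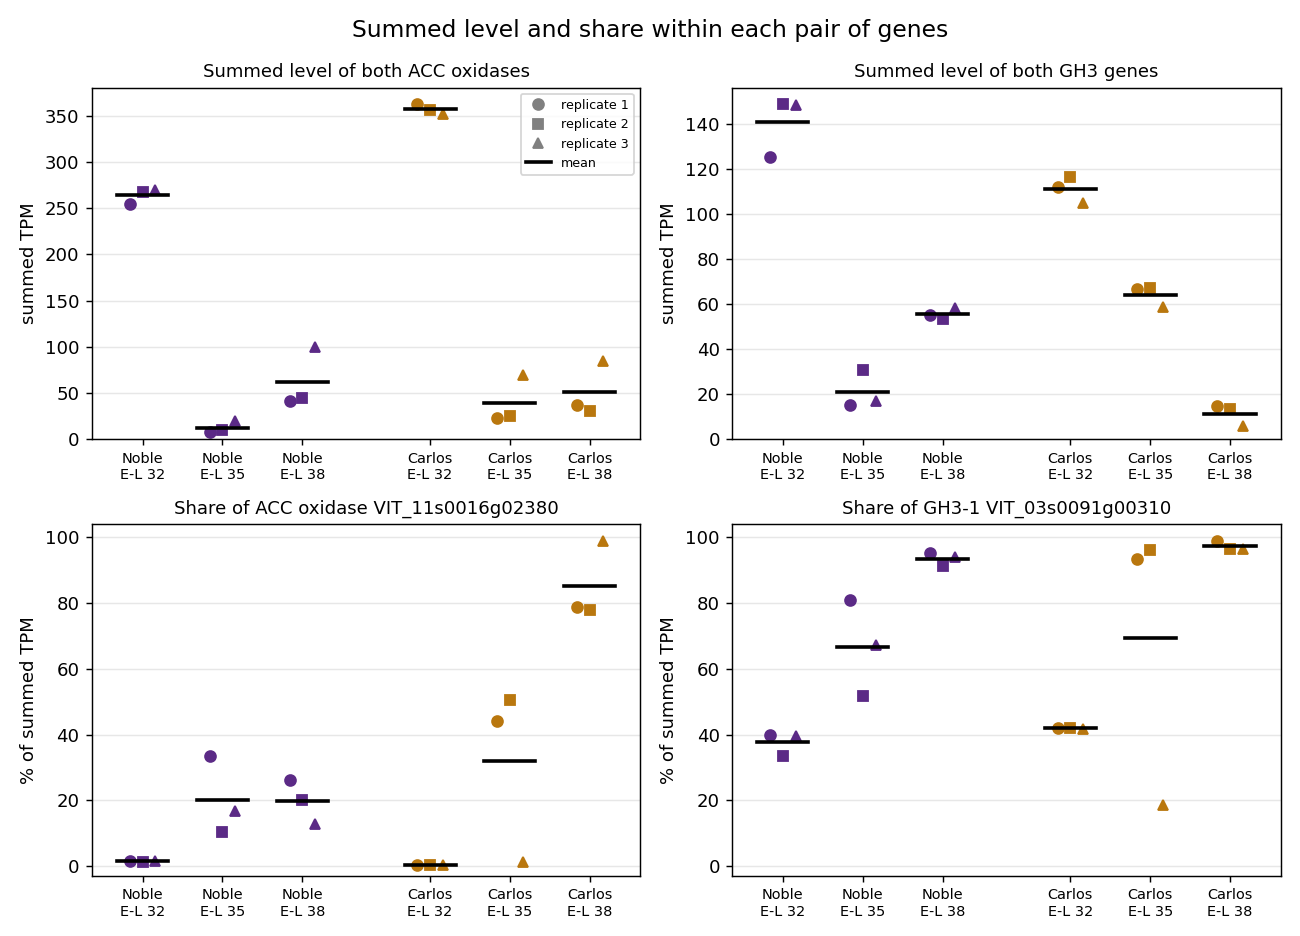
Summed TPM of both measured ACC oxidases (top left) and both GH3 genes (top right), and the percent of that sum held by VIT_11s0016g02380 (bottom left) and GH3-1 (bottom right), per library with the group mean as a bar. The share of VIT_11s0016g02380 reached 78.0% to 99.03% at E-L 38 under the Carlos label, and that of GH3-1 lay at 91.4% to 98.98% at E-L 38 under both labels.

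Within single cultivar labels, 2 to 4 of the 4 genes were called at each step. In Noble 3 of 4 were called at E-L 35 against E-L 32, all lower, where 50.1% of genes were called (23.7% higher and 26.4% lower). In Carlos 2 of 4 were called in that step, 1 higher and 1 lower, where 53.5% of genes were called (26.1% higher and 27.4% lower), and 4 of 4 were called without the 3 libraries that stood apart, where 62.8% of genes were called. In libraries labelled Noble 3 of 4 were higher at E-L 38 than at E-L 35, where 32.5% of genes were called (15.3% higher and 17.3% lower). In libraries labelled Carlos 4 of 4 were called, 1 higher and 3 lower, where 40.5% of genes were called (18.7% higher and 21.8% lower). Without the 3 libraries 3 of 4 were called there, VIT_12s0059g01380 no longer among them, where 42.2% of genes were called. When only these 6 libraries were fitted 1 of 4 (GH3-2) was called, where 17.4% of genes were. Successive steps of a cultivar share the E-L 35 libraries, so a library that stood apart at E-L 35 enters both with opposite sign.

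At bunch closure, 0 of the 4 genes were called between Noble and Carlos with edgeR fitted to all libraries, where 27.5% of genes were called (13.8% higher in Noble and 13.6% lower). Of these calls 50.4% were higher in Noble, against 60.5% with upper-quartile scaling. At an unadjusted p under 0.05 there was 1, VIT_11s0016g02380, and the share of all genes under that threshold was not computed. This gene was also the 1 called with DESeq2, where 31.3% of all genes were called. With limma-voom 0 were called, where 31.2% of all genes were. VIT_11s0016g02380 had a mean of 2.16 ± 0.252 CPM in Noble libraries and 0.509 ± 0.139 CPM in Carlos libraries (SD, n = 3 each). Its log2 fold change was 2.10 ± 0.83 (SE, edgeR adjusted p = 0.0731). It was called without the 3 libraries that stood apart (adjusted p = 0.0261), where 37.1% of genes were called. VIT_12s0059g01380 had a mean of 201 ± 0.764 CPM in Noble libraries and 302 ± 3.78 CPM in Carlos libraries, for a log2 fold change of -0.59 ± 0.68 with a 95% interval of -2.04 to 0.87. GH3-2 had a mean of 99.4 ± 10.996 CPM in Noble libraries and 80.3 ± 2.64 CPM in Carlos libraries, for a log2 fold change of 0.31 ± 0.77. The share of all genes without overlap between these groups was not computed. For VIT_11s0016g02380, VIT_12s0059g01380 and GH3-2 their libraries did not overlap, which without that share says nothing particular about these genes. A fit to the 6 libraries of E-L 32 alone called all 3 of them, and it also called 54.9% of all genes. GH3-1 had a mean of 72.4 ± 5.90 CPM in Noble libraries and 70.4 ± 2.81 CPM in Carlos libraries, with overlapping libraries and a log2 fold change of 0.04 ± 0.44 (95% interval -0.89 to 0.97).

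At veraison 1 of 4 genes was called between the cultivars, GH3-1 as lower in Noble, where 19.0% of all genes were called (9.75% higher in Noble and 9.25% lower). Without the 3 libraries that stood apart 2 of 4 were called, GH3-1 and VIT_11s0016g02380, where 32.8% of genes were called. With DESeq2 3 of 4 were called, where 23.6% of genes were, with VIT_11s0016g02380 (adjusted p = 0.0274) and VIT_12s0059g01380 (0.0348) added. GH3-1 had a mean of 22.8 ± 3.47 CPM in Noble libraries and 88.6 ± 58.1 CPM in Carlos libraries (SD, n = 3 each). Its log2 fold change was -1.96 ± 0.45 (SE, edgeR adjusted p = 0.00807). It was not called in a fit to these 6 libraries alone, which called 2.805% of genes (0.154, in a range of 7.1e-06 to 0.154), in which Carlos replicate 3 overlapped Noble. VIT_11s0016g02380 averaged 1.67 ± 0.893 CPM in Noble libraries and 6.23 ± 4.97 CPM in Carlos libraries, for a log2 fold change of -1.92 ± 0.72 that was not called (adjusted p = 0.0772). It was called at -2.47 without Carlos E-L 35 replicate 3 (adjusted p = 0.00280). VIT_12s0059g01380 had a log2 fold change of -1.82 ± 0.72 (adjusted p = 0.0931), which was -0.47 without that library. GH3-2 had -1.42 ± 0.80 (adjusted p = 0.231), which turned to 0.99 without it and was -2.27 without Noble E-L 35 replicate 2.

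At maturity 4 of 4 genes were called between the labels, 3 higher and 1 lower in libraries labelled Noble, where 23.4% of all genes were called (11.4% higher and 12.0% lower). VIT_12s0059g01380 averaged 56.3 ± 33.4 CPM under the Noble label and 5.58 ± 4.02 CPM under the Carlos label (SD, n = 3 each), for a log2 fold change of 3.33 ± 0.77 (SE, edgeR adjusted p = 0.00578). GH3-1 averaged 103 ± 4.04 CPM under the Noble label and 21.6 ± 8.95 CPM under the Carlos label, for a log2 fold change of 2.26 ± 0.46 (adjusted p = 0.00251). GH3-2 averaged 5.90 ± 1.70 CPM under the Noble label and 0.445 ± 0.274 CPM under the Carlos label, for a log2 fold change of 3.73 ± 1.08 (adjusted p = 0.0208). VIT_11s0016g02380 was the gene on the Carlos side, at 8.93 ± 1.44 CPM under the Noble label and 39.0 ± 30.6 CPM under the Carlos label, for a log2 fold change of -2.13 ± 0.67 (adjusted p = 0.0331). The labelled groups did not overlap for any of the 4 genes. The share of all genes without overlap was not computed, so this says nothing particular about these genes. The value of VIT_12s0059g01380 was 2.75 without Noble E-L 38 replicate 3, and that of GH3-2 was 4.35 without Carlos E-L 38 replicate 2. Without Carlos E-L 38 replicate 3 the call of VIT_11s0016g02380 ended at -1.25 (adjusted p = 0.212). It also ended, at about the same size, without Noble E-L 38 replicate 1 (-2.12, adjusted p = 0.0932), replicate 2 (-1.996, 0.109) or replicate 3 (-2.23, 0.0741). The call of GH3-2 ended with limma-voom (3.81, adjusted p = 0.214), without Noble E-L 38 replicate 2 (3.51, 0.0535), and without Carlos E-L 38 replicate 1 (3.43, 0.0737) or replicate 3 (3.59, 0.0693). Which cultivar each side belongs to depends on the E-L 38 names.

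**Figure D4:**
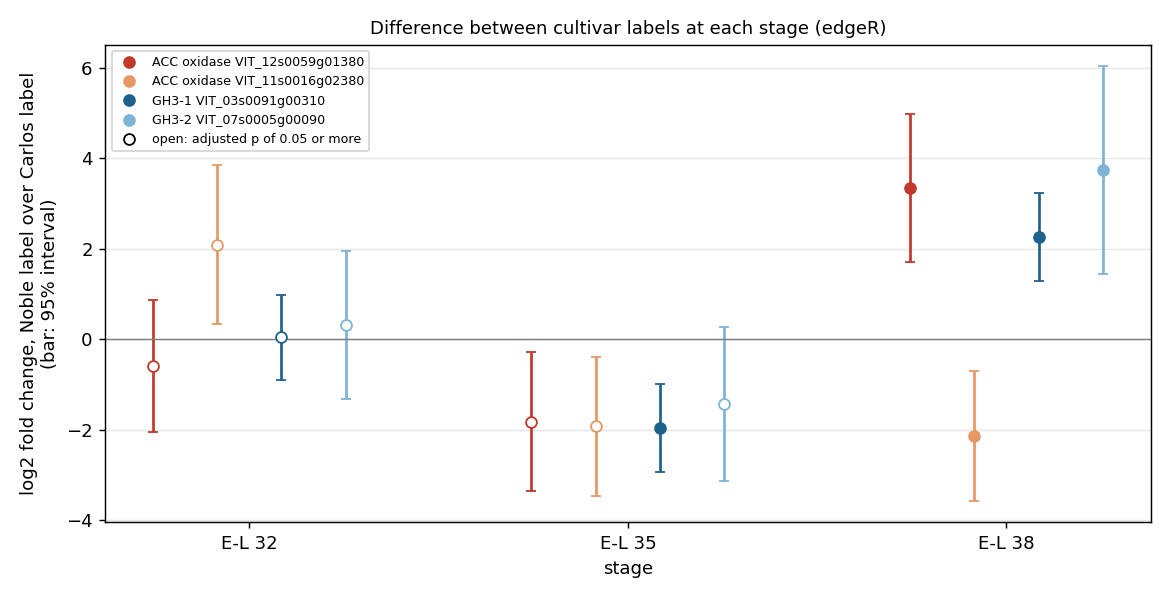
Log2 fold change of libraries labelled Noble over those labelled Carlos at each stage, with bars for the 95% interval, filled where the adjusted p was under 0.05. GH3-1 lay near 0 at E-L 32, at -1.96 at E-L 35 and at 2.26 at E-L 38.

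Whether the stage steps differed between the labels was tested directly. From E-L 32 to E-L 35, 2 of 4 genes were called for the Noble step minus the Carlos step, VIT_11s0016g02380 and GH3-1, both negative, where 17.6% of all genes were called (8.69% positive and 8.91% negative). VIT_12s0059g01380 had a difference of -1.23 ± 0.98 on the log2 scale (SE, edgeR adjusted p = 0.420) that turned to 0.12 without Carlos E-L 35 replicate 3. GH3-2 had -1.73 ± 1.10 (adjusted p = 0.303), which turned to 0.69 without it. From E-L 35 to E-L 38, 3 of 4 genes were called, all positive, where 33.4% of all genes were called (16.9% positive and 16.5% negative). The differences were 5.15 ± 1.05 for VIT_12s0059g01380 (adjusted p = 0.00161), 4.22 ± 0.65 for GH3-1 and 5.16 ± 1.35 for GH3-2 (adjusted p = 0.00851). Without Carlos E-L 35 replicate 3 they were 3.82 for VIT_12s0059g01380 and 2.77 for GH3-2. GH3-2 had 6.01 without Noble E-L 35 replicate 2 and 5.78 without Carlos E-L 38 replicate 2, and it was not called with limma-voom (0.164). VIT_11s0016g02380 had -0.20 ± 0.98, with a 95% interval of -2.29 to 1.88 (adjusted p = 0.905).

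Ordered by mean level, the 4 genes ranked the groups differently. For VIT_12s0059g01380 the order from the top was Carlos E-L 32, Noble E-L 32, Noble-labelled E-L 38, Carlos E-L 35, Noble E-L 35 and Carlos-labelled E-L 38, and each neighbouring pair from the third place on overlapped. VIT_11s0016g02380 ran from Carlos-labelled E-L 38 through Noble-labelled E-L 38, Carlos E-L 35, Noble E-L 32 and Noble E-L 35 to Carlos E-L 32, where only the first and the last place lay clear of their neighbour. By its means GH3-1 fell into an upper set (Noble-labelled E-L 38, Carlos E-L 35, Noble E-L 32 and Carlos E-L 32, overlapping in turn) and a lower set. The lower set was Noble E-L 35 and Carlos-labelled E-L 38, which overlapped. The sets were not separate by library, since Carlos E-L 35 replicate 3, at 21.6 CPM, lay in the range of both lower groups. GH3-2 ran from Noble E-L 32 and Carlos E-L 32, which lay apart, through Carlos E-L 35, Noble E-L 35 and Noble-labelled E-L 38 to Carlos-labelled E-L 38, the last clear of all others.

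The genes whose log2 CPM followed each of the 4 most closely over the 18 libraries were picked for that likeness, so their correlations are a description. They share the large split between stages and the libraries that stood apart. VIT_07s0129g01100 followed VIT_12s0059g01380 at Pearson r = 0.981, before VIT_06s0009g03420 and VIT_14s0060g00990, both at 0.958. VIT_14s0066g01710 followed VIT_11s0016g02380 at 0.973, before VIT_05s0020g02770 at 0.959 and VIT_04s0044g01130 at 0.958. GH3-1 was followed by VIT_07s0005g04400 at 0.968, VIT_01s0011g00750 at 0.964 and VIT_08s0040g01890 at 0.944. GH3-2 was followed by VIT_17s0000g01290 at 0.987, VIT_04s0008g04200 at 0.983 and VIT_07s0005g02440 at 0.982. None of the 4 genes was among the 3 closest of another.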

How the data were processed

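The authors deposited 1 gene table per library, with an expected count (an estimated number of reads), a TPM and an FPKM for every gene, per the file headers. STAR 2.7.6a and RSEM 1.3.3 are named in the submitters' processing notes. Build, annotation and strand use were not stated in the sources used here. The TPM and FPKM values deposited by the authors are scaled by length and library total. Per the labels' protocols, the library kit was directional, and reads of an overlapping antisense gene cannot be told apart without the strand setting. Whether reads of both cultivars match the reference equally well is not known. Expected counts of the 4 genes were whole in all 18 libraries (tolerance 1e-06).

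A reference table of 27334 Carlos genes matched 0 identifiers, so no sequence is shown and other ethylene or auxin genes were not tested. Expected counts were rounded, filtered with filterByExpr, scaled by TMM and tested in edgeR 4.0.16 (R 4.3.3) with its quasi-likelihood F test over 18 libraries with 1 coefficient per group. The Benjamini-Hochberg adjustment covered 17657 genes, and calls needed an adjusted p under 0.05. SE is the log2 fold change divided by the square root of F. Log2 CPM used a prior count of 2. The test was checked on simulated data. Shares used TPM, and the planned share of 3 ACC oxidases was taken over 2. Named genes are the listed genes and, for each, the 3 tested genes most correlated with it. Alternatives were DESeq2 1.42.0, limma-voom (limma 3.58.1), other scalings and filters, smaller fits, a replicate block and libraries left out. Members and comparisons were chosen with earlier results of these data known.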

Additional observations from a re-analysis of the deposited data

Results flagged for a closer look

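Stage steps of some genes differed between the cultivar labels by a test of the difference itself (edgeR, Noble step minus Carlos step, log2 scale). From E-L 32 to E-L 35 the difference was -4.02 for VIT_11s0016g02380 (95% interval -6.36 to -1.68) and -1.999 for GH3-1, VIT_03s0091g00310 (-3.33 to -0.67). The call held in 18 of 20 alternatives for VIT_11s0016g02380 and in 8 of 20 for GH3-1. Neither was called with limma-voom (adjusted p of 0.229 and 0.113, in that order). From E-L 35 to E-L 38 it was 5.15 for VIT_12s0059g01380 (2.92 to 7.39), 4.22 for GH3-1 (2.84 to 5.596) and 5.16 for GH3-2, VIT_07s0005g00090 (2.29 to 8.03). The 3 later differences depend on the cultivar names at E-L 38, and that of GH3-2 was not called with limma-voom (0.164).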

How the results depend on the processing

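Values are log2 fold changes on the report's scale, from edgeR unless another tool is named. The next counts are of gene, comparison and setting together, so each of the 48 gene results enters once per setting. In settings other than leaving out 1 library, 347 kept direction and side of the threshold, 17 gained a call, 21 lost one and 7 turned. With 1 library left out, 362 kept both, 5 gained, 25 lost and 16 turned. At E-L 38 over E-L 32, averaged over both labels, every alternative was called for VIT_12s0059g01380 (-4.12 to -3.54), VIT_11s0016g02380 (3.73 to 4.32) and GH3-2 (-6.08 to -5.63). The cause of the changes below was not tested.

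DESeq2 added calls for GH3-1 at E-L 35 over E-L 32 in both cultivars (-0.70), and, for Noble over Carlos, for VIT_11s0016g02380 at E-L 32 (2.09) and E-L 35 (-1.92) and for VIT_12s0059g01380 at E-L 35 (-1.84). With limma-voom, calls were added for GH3-2 in Carlos (-2.67) and GH3-1 in both cultivars (-0.85) at E-L 35 over E-L 32, and GH3-1 in Carlos turned to -0.028. It ended calls of VIT_11s0016g02380 in that step in Carlos (2.96) and in both (1.17), of VIT_11s0016g02380 at E-L 38 over E-L 35 under the Noble label (2.67), and of GH3-2 in the later step under the Carlos label (-4.93) and in both (-2.82). It also ended the calls of GH3-2 between the labels at E-L 38 (3.81), and of the step differences of VIT_11s0016g02380 (-3.58) and GH3-1 (-1.64) to E-L 35 and of GH3-2 (4.22) to E-L 38.

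Fitting only the groups compared ended the later-step calls under the Carlos label for VIT_12s0059g01380 (-2.67), VIT_11s0016g02380 (2.61) and GH3-1 (-2.07), with 2746 genes called in place of 7149. It ended those of GH3-1 for Noble over Carlos at E-L 35 (-1.96), with 449 genes in place of 3356, and of its step difference to E-L 35 (-1.998). It added GH3-1 over the whole span (-0.63) and, for Noble over Carlos at E-L 32, VIT_12s0059g01380 (-0.56), VIT_11s0016g02380 (2.12) and GH3-2 (0.33), with 9298 genes in place of 4852.

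Without the 3 libraries that stood apart, E-L 35 over E-L 32 gained calls of GH3-1 (0.80) and GH3-2 (-3.84) in Carlos and of GH3-1 in both (-0.51), and VIT_11s0016g02380 in Noble turned to 0.10. At E-L 38 over E-L 35 the call of VIT_12s0059g01380 under the Carlos label ended (-1.27), and in both labels VIT_12s0059g01380 turned to 0.57 and GH3-1 to -0.10. GH3-1 was added over the whole span (-0.60), as was VIT_11s0016g02380 for Noble over Carlos at E-L 32 (2.01) and E-L 35 (-2.06), where GH3-2 turned to 0.14. The step difference of VIT_12s0059g01380 to E-L 35 turned to 0.25. Genes called numbered 5841 in place of 3356 for Noble over Carlos at E-L 35, 6671 in place of 4130 at E-L 38, and 5252 in place of 3108 for the step difference to E-L 35.

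Set against E-L 35 of the other label, E-L 38 under the Noble label lost the calls of VIT_12s0059g01380 (0.71), VIT_11s0016g02380 (0.52) and GH3-1 (0.22), with 3787 genes called in place of 5746. Under the Carlos label it lost VIT_12s0059g01380 (-0.80) and GH3-1 (-0.082), with 3858 in place of 7149, while VIT_11s0016g02380 moved to 4.57 and GH3-2 to -4.64, both still called. GH3-2 under the Noble label moved to -2.33, not called.

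Replicate numbers did not pair the libraries: 5 of 45 same-numbered pairs had deviations correlated above 0.1, and in 31 of 90 cases a library correlated best with its own number. With a replicate block, 3 of 48 gene results changed: GH3-1 at E-L 35 over E-L 32 in both (-0.75, called), VIT_12s0059g01380 at E-L 38 over E-L 35 in both (0.17, turned) and VIT_11s0016g02380 between the labels at E-L 38 (-2.05, not called).

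With 1 library left out, E-L 35 over E-L 32 ran from -0.78 to 0.0029 for VIT_11s0016g02380 in Noble, 0.0079 to 0.81 for GH3-1 and -3.83 to -0.92 for GH3-2 in Carlos, and 1.36 to 1.89 for VIT_11s0016g02380 and -0.83 to -0.43 for GH3-1 in both. E-L 38 over E-L 35 ran from 1.94 to 3.10 for VIT_12s0059g01380 and 2.05 to 2.83 for VIT_11s0016g02380 under the Noble label, and -3.04 to -1.28 and 1.76 to 3.15 for the same genes under the Carlos label. In both labels it ran from -0.35 to 0.63 for VIT_12s0059g01380 and -0.17 to 0.23 for GH3-1. Noble over Carlos ran from -0.0145 to 0.10 for GH3-1 at E-L 32, -2.47 to -1.41 for VIT_11s0016g02380 and -2.27 to 0.99 for GH3-2 at E-L 35 (1869 to 4944 genes called), and -2.42 to -1.25 for VIT_11s0016g02380 and 3.43 to 4.35 for GH3-2 at E-L 38. The step difference to E-L 35 ran from -1.81 to 0.12 for VIT_12s0059g01380, -4.57 to -3.51 for VIT_11s0016g02380, -2.46 to -1.67 for GH3-1 and -2.58 to 0.69 for GH3-2 (2105 to 4770 genes called). To E-L 38 it ran from -0.71 to 0.68 for VIT_11s0016g02380. With upper-quartile scaling, 60.5% of calls at E-L 32 were higher in Noble, against 50.4% with TMM, and the median of all genes moved to -0.12 at most.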
